A study of Mus musculus with 2 samples.

Results

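Krüppel-like factor genes were measured in keratinocytes sorted from mouse dorsal skin by bulk RNA sequencing. The set comprised Klf2, Klf3, Klf4, Klf5, Klf6, Klf7, Klf9, Klf10, Klf12 and Klf13, taken by gene symbol, which are 10 of the 50559 genes in the deposited tables. All 10 had counts in both libraries and all passed the minimum of 10 counts in total that was set for testing. There were 2 replicate libraries, both of 1 group, without controls that lack the modification. The mice carried Polr2b.fl.fl.GFP, a floxed gene of a large RNA polymerase II subunit with GFP, together with K14Cre, in which the promoter of keratin 14, a gene of basal epidermis, drives Cre; cells descended from Cre-expressing cells keep the recombined allele. The mice were 21 days old, when the hair follicles rest (telogen), and the skin was digested with collagenase and trypsin. Live GFP-positive cells were collected by flow cytometry. The study asked how steady-state RNA relates to nascent RNA, and the nascent RNA was not analysed here.

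Krüppel-like factors are transcription factors that bind GC-rich and CACCC sequences through zinc fingers at their carboxyl end. Their amino-terminal parts differ and recruit either coactivators or corepressors, and the related Sp factors carry the same kind of fingers. In skin, Klf4 is required for the epidermal barrier and marks cells leaving the basal layer, while Klf5 is known from proliferating basal cells of several epithelia. Klf2, Klf4, Klf6 and Klf10 also belong to the genes that cells induce soon after stimulation.

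The shared part of the family is shown first, because the counts of related genes can only be told apart where their sequences differ. A pattern of 3 consecutive fingers, each with 2 cysteine and 2 histidine codons at fixed spacing, was found in the GENCODE M21 coding transcripts of all 10 members, of 7 of 7 other Klf genes and of 9 of 9 Sp genes. The stretch spans 81 codons or 243 bases. It is given here for Klf6 and Klf7, the most similar pair of members, and for Klf2 and Klf4, the pair ranked next together with Klf3 and Klf12, with the 12 cysteine and histidine codons in capitals.
Klf6: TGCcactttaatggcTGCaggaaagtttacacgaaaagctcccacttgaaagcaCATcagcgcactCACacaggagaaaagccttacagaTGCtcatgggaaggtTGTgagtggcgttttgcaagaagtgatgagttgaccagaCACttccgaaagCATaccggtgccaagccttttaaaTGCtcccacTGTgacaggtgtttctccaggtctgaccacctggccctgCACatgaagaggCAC
Klf7: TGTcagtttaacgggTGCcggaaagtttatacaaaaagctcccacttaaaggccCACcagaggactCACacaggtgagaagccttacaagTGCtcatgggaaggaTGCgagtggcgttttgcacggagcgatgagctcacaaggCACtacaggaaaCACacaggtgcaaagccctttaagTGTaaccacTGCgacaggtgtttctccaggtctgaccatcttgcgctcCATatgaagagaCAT
Klf2: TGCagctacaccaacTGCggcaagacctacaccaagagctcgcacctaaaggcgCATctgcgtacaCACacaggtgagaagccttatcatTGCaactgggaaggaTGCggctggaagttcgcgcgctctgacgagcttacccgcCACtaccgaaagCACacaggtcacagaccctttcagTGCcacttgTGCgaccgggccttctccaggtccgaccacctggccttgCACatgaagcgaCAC
Klf4: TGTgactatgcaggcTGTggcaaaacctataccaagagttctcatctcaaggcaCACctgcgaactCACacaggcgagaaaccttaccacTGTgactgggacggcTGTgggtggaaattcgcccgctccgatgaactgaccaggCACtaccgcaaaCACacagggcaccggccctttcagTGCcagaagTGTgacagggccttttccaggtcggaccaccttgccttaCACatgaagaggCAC

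Base identity within this stretch was 81.1% between Klf6 and Klf7 and 78.2% between Klf2 and Klf4. Klf3 and Klf12, which both bind the corepressor CtBP, shared 78.2%. Over the 45 pairs of members the identity ranged from 57.2 to 81.1% with a median of 67.9%, and 84 of the 243 bases were the same in all 10. All these values include the first 2 bases of the 12 cysteine and histidine codons, which the search pattern fixed in advance. The longest identical run between any 2 members was 26 bases, in Klf6 and Klf7. Reads were 150 bases long, and no run of 50 bases from a member's transcripts occurred in a transcript of another Klf or Sp gene. Runs of 50 bases shared with genes outside the family made up 38.2% of those of Klf7 (all in the annotated transcript Gm26649), 5.35% of those of Klf12 and 3.48% of those of Klf3. For each of the other 7 members the share was below that of Klf3, and Klf2, Klf6, Klf9 and Klf10 shared none. How reads from such stretches were assigned is not known. Klf9, Klf10 and Klf13, which bind the corepressor Sin3, had 64.6 to 72.8% identity among themselves. Their 21 pairs with the other 7 members had 57.2 to 66.3%, against 67.9 to 81.1% among those 7.

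**Figure D1:**
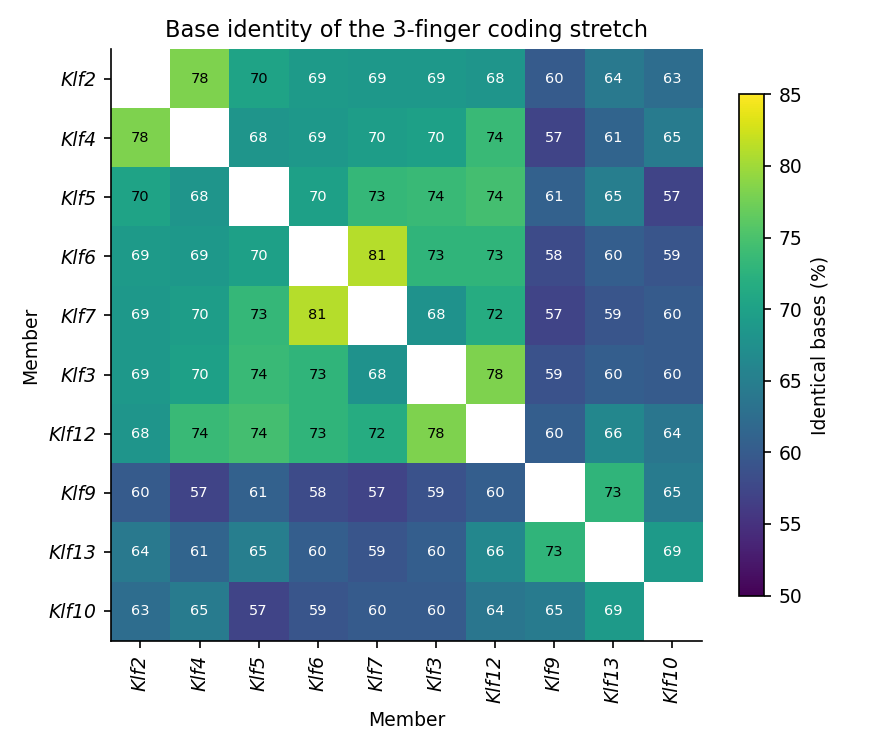
Percent of identical bases in the coding stretch of 3 zinc fingers for each pair of members, with members on both axes and colour for the percentage. Klf6 and Klf7 are the most similar pair at 81.1%, and the pairs of Klf9, Klf10 or Klf13 with the other members lie between 57.2 and 66.3%.

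Regulatory sequence was taken from RefSeq on build GRCm38.p6 as the 250 bases before the annotated start, which matched 8 of the 10 members. Klf5 and Klf10 had no entry. Both strands were searched for CACCC, TGACGTCA, the CArG box and GGGCGG, which is the core of the GC box bound by Sp factors. They were also searched for CTA and TAG separated by any 4 bases. This pattern is wider than a Mef2 site, in which these 4 bases are A or T. GGGCGG was present in 6 of the 8 windows, with up to 6 matches in Klf3, and in 32.7% of all 32851 promoter windows of this length. CACCC was present in 6 of 8, against 52.0% of all windows. The CTA and TAG pattern, with any 4 bases between, occurred in Klf2 alone among the 8, and in 3.20% of all windows. Neither TGACGTCA nor the CArG box matched in the 8. The GC content of the members' windows ranged from 48.0% for Klf12 to 78.4% for Klf3, beside a median of 52.4% over all windows. The windows of Klf2 (chr8:72318812-72319061, plus strand) and Klf4 (chr4:55532476-55532725, minus strand) are shown. Both were chosen as textbook targets of the Mapk7 and Mef2 pathway that stood next to each other in level with the deposited gene lengths. With GENCODE lengths Klf6 lay between them. Matches to the motifs are in capitals.
Klf2: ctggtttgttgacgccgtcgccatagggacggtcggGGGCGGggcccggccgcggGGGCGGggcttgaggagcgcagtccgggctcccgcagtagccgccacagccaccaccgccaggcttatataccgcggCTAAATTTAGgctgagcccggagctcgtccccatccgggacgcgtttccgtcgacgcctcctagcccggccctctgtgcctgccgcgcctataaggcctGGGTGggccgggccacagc
Klf4: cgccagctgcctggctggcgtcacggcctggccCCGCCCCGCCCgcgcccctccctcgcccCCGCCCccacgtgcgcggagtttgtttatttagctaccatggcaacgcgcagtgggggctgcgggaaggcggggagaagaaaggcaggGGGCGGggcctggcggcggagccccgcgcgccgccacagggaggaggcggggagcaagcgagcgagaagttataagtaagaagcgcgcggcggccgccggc
The Klf2 window held 2 GGGCGG matches, 1 CACCC match and the CTA and TAG pattern, which lay 109 to 118 bases before the start. The bases between CTA and TAG were only A and T there. The Klf4 window held 4 GGGCGG matches, of which 2 overlapped by 1 base, and none of the other motifs. A match of letters does not show that a factor bound there.

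The libraries held 36692204 and 33489967 counts. Markers of basal epidermis were abundant, with 11 of 11 at 10 CPM (counts per 1000000 of the library's total) or more in both libraries, led per length by Krt5 and Krt15 and lowest for Dst. Fibroblast markers, led by Col1a1 and Col3a1 with Pdgfra lowest, reached that level for 10 of 10 genes. Myeloid markers, led by Lyz2 and C1qb with Cd207 lowest, reached it for 10 of 11. T cell markers were low: Cd2 had 129 and 52 counts and Cd3e 29 and 32, while Trac and Trdc had 0 in both libraries. RNA of genes that mark other cell types was thus present beside that of keratinocytes. In bulk samples fewer cells of a type and less RNA per cell cannot be told apart. The libraries differed in sex-linked RNA, as Xist had 112587 counts in replicate 1 and 11 in replicate 2, while Uty had 0 and 2394. The labels leave the source animals unstated, but with such counts the 2 libraries cannot be repeats from 1 animal. Sex-linked RNA was split by library, so any effect of sex cannot be told apart from the difference between replicates. The part of sex in the ratios below was not tested. The p-values below measure only the difference between these 2 libraries.

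Klf6, a broadly expressed factor that is induced by injury, had the highest level of the family per base of deposited gene length. It stood at 752 TPM in replicate 1 and 748 TPM in replicate 2 (TPM, counts divided by gene length and scaled to a sum of 1000000 in each library), or 750 ± 2.80 TPM (SD, n = 2, as for all levels below). These values lay above those of every other member in both libraries, and their mean lay at the 99.1 percentile of the 15833 genes with 1 CPM or more in both. Klf2, known for keeping endothelial cells and T cells quiescent and also expressed by myeloid cells, stood at 375 and 409 TPM. Klf4 stood at 336 and 377 TPM. The ranges of Klf2 and Klf4 over the libraries overlapped, although Klf2 was above Klf4 within each library at this gene length. Klf5 stood at 228 TPM in replicate 1 and 330 TPM in replicate 2, below Klf4 in both libraries. The spread of Klf5, 279 ± 71.8 TPM, was the widest of the 10 in TPM. Klf7, a relative of Klf6 that is known from neuronal development, stood at 14.2 and 11.8 TPM. Klf6 exceeded Klf7 by 5.86 ± 0.19 on the log2 scale or 57.9-fold, and 54.1-fold with GENCODE lengths.

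The members that act mainly as repressors through CtBP stood far apart. Klf3 stood at 128 TPM in replicate 1 and 174 TPM in replicate 2. Klf12, first described as a repressor of the AP-2 alpha gene, stood at 0.796 and 0.619 TPM from 305 and 216 counts. Klf3 was 213-fold higher with the deposited lengths and 49.7-fold higher with the GENCODE lengths described below. Klf12 was the lowest of the 10 in both libraries with either length. It lay at the 3.03 percentile of detected genes with the deposited length, and no percentile was computed with the shorter GENCODE length.

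The members that recruit the Sin3 corepressor had similar levels. Klf13 stood at 133 and 137 TPM. Klf9, a gene that glucocorticoids and thyroid hormone induce, stood at 144 and 109 TPM. Klf10, known as an early gene of TGF-beta signalling, stood at 113 TPM in replicate 1 and 104 TPM in replicate 2. The order by mean TPM was Klf6, Klf2, Klf4, Klf5, Klf3, Klf13, Klf9, Klf10, Klf7 and Klf12. Of its 9 neighbouring pairs 5 did not overlap between the libraries. The 4 that overlapped were Klf2 with Klf4, Klf3 with Klf13, Klf13 with Klf9, and Klf9 with Klf10. The 10 genes took up 0.386% of the counts of replicate 1 and 0.408% of those of replicate 2. Their summed level was 2312 ± 124 TPM. Klf6 held 32.5 ± 1.87% of that sum, Klf2 17.0 ± 0.143% and Klf4 15.4 ± 0.439%.

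The order at the top depended on the gene length used. The deposited length of Klf4 is 7553 bases, while the longest coding transcript in GENCODE M21 has 3029. For Klf5 these are 1728 and 3352 bases, and for Klf12 25860 and 5890. The lengths of the other 7 members differed by less than 1.5 times. With the GENCODE lengths, an alternative chosen after seeing the data, Klf4 stood at 888 ± 73.0 TPM and came first in both libraries, ahead of Klf6 at 749 ± 2.80 TPM and Klf2 at 385 ± 24.0 TPM. Of the summed level Klf4 then held 32.4% and Klf6 27.3%, followed by Klf2. Of the members' summed counts, with no length, Klf6 held 32.2%, Klf4 27.3% and Klf2 7.23%. Klf5 then stood at 144 ± 37.0 TPM, with values that overlapped those of Klf3 at 155 ± 33.3 TPM, and Klf12 was lowest at 3.11 ± 0.550 TPM. Klf4 exceeded Klf5 in both libraries with either length, by 1.30-fold with the deposited length and 6.27-fold with that of GENCODE. The reads had been counted over the deposited gene models, so neither length gives the transcripts that were present.

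**Figure D2:**
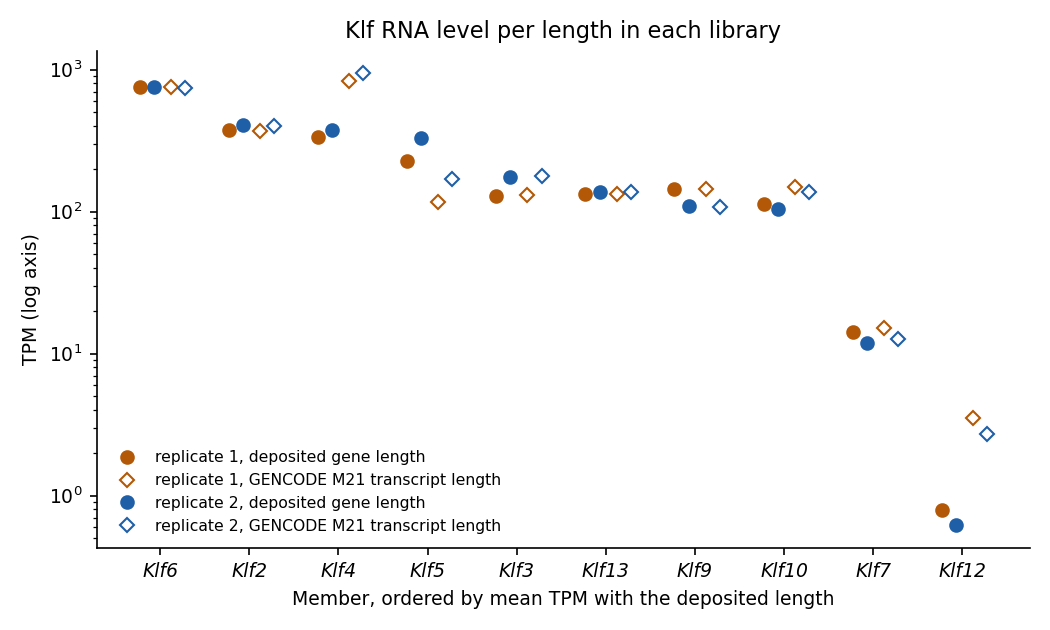
TPM of each member on a log axis, with orange for replicate 1 and blue for replicate 2, as filled circles for the deposited gene length and open diamonds for the longest coding transcript of GENCODE M21. Klf6 is highest at 752 and 748 TPM with the deposited length, and Klf4 with the GENCODE length, while Klf7 and Klf12 are lowest with both. The diamonds keep the library scaling of the deposited lengths.

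The libraries were then compared gene by gene, which shows how far these 2 libraries differed for each gene. Scaled by total counts and adjusted by Benjamini-Hochberg over 23690 genes, 8 of the 10 members differed beyond counting error in a two-sided exact binomial test. Klf2, Klf3, Klf4 and Klf5 were higher in replicate 2 and Klf7, Klf9, Klf10 and Klf12 lower, while Klf6 and Klf13 did not pass the test. Over all tested genes 44.1% passed, 16.9% higher and 27.2% lower. The members had high counts, between 521 and 89564 in total, and among the 10737 genes in that range 63.5% passed. The median size of the log2 ratio was 0.22 for the members and 0.19 for genes in that range. Against the spread between libraries shared by all genes, a coefficient of variation of 22.7%, none of the 10 passed edgeR's exact test, in which 0.279% of all genes passed, 0.0886% higher and 0.19% lower. At an unadjusted p under 0.05 it also called 0 of 10, against 7.18% of all genes, 1.96% higher and 5.23% lower. The smallest unadjusted p of edgeR's exact test with this common dispersion was 0.197 among the members, for Klf5. The dispersion was estimated from the same 2 libraries. With gene-wise dispersions the share of genes called was 0.0%, and even Xist had an adjusted p of 1 in edgeR's exact test, so that setting says nothing about the members.

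With total counts Klf5 showed the largest difference of the 10. It had 159 CPM in replicate 1 and 230 CPM in replicate 2, a log2 ratio of 0.53 (95% counting interval 0.48 to 0.58, adjusted p = 4.78e-98 in the exact binomial test). Klf3 followed, with 277 and 375 CPM and a log2 ratio of 0.44 (0.40 to 0.48, adjusted p = 3.42e-114 in the exact binomial test). Both were higher in replicate 2, and they were the 2 members that passed the binomial test as higher under all 4 scalings tried. Klf4 had 1023 and 1147 CPM, and Klf2 had 275 and 299 CPM. Their log2 ratios were 0.17 and 0.12.

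Klf9 showed the largest difference in the other direction. It had 260 CPM in replicate 1 and 196 CPM in replicate 2, a log2 ratio of -0.41 (-0.46 to -0.36, adjusted p = 2.24e-69 in the exact binomial test). Klf12 had 8.31 and 6.45 CPM at a log2 ratio of -0.37, with the widest interval of the 10, -0.62 to -0.11, because its counts were the lowest. Klf7 had 47.0 and 38.9 CPM at -0.27, and the overlapping gene Gm13748 had 506 and 309 counts beside 1726 and 1302 for Klf7. Klf10 had 184 and 168 CPM at -0.13. Klf6, with 1281 and 1271 CPM, differed by -0.01 (-0.03 to 0.01), and Klf13, with 343 and 352 CPM, by 0.04 (0.00 to 0.07, adjusted p = 0.0842 in the exact binomial test). With total counts Klf6 and Klf13 were thus the members on which the libraries lay closest, but with TMM it was Klf10 at -0.05 and with the scaling to junction genes described below Klf3 at 0.06.

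Some of these directions followed the scaling of the libraries. The shift to subtract from each log2 ratio was -0.08 with TMM factors, which made 6 members higher (Klf2, Klf3, Klf4, Klf5, Klf6 and Klf13) and left Klf7 and Klf9 lower, while Klf10 and Klf12 did not pass. Over all genes 22.7% were then higher and 21.4% lower, 44.1% together. DESeq2 size factors called the same members, against 23.2% of all genes higher and 21.0% lower, 44.2% together. When the libraries were scaled to 10 cell junction genes of keratinocytes, the shift was 0.38 and the median log2 ratio over detected genes was -0.43. Klf3 and Klf5 were then higher at 0.06 and 0.15 and the other 8 lower, with Klf2 at -0.25 and Klf4 at -0.21. The largest differences were then those of Klf9 at -0.79, Klf12 at -0.74 and Klf7 at -0.65, followed by Klf10 at -0.51, Klf6 at -0.39 and Klf13 at -0.34. Of all genes 3.42% were higher and 60.5% lower under that scaling, 63.9% together. Without the filter on low counts 31.0% of 32756 genes passed, 11.9% higher and 19.2% lower, and the members' calls did not change. Klf7 and Klf9 were lower and Klf3 and Klf5 higher under total counts, TMM, DESeq2 size factors and the junction list alike.

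**Figure D3:**
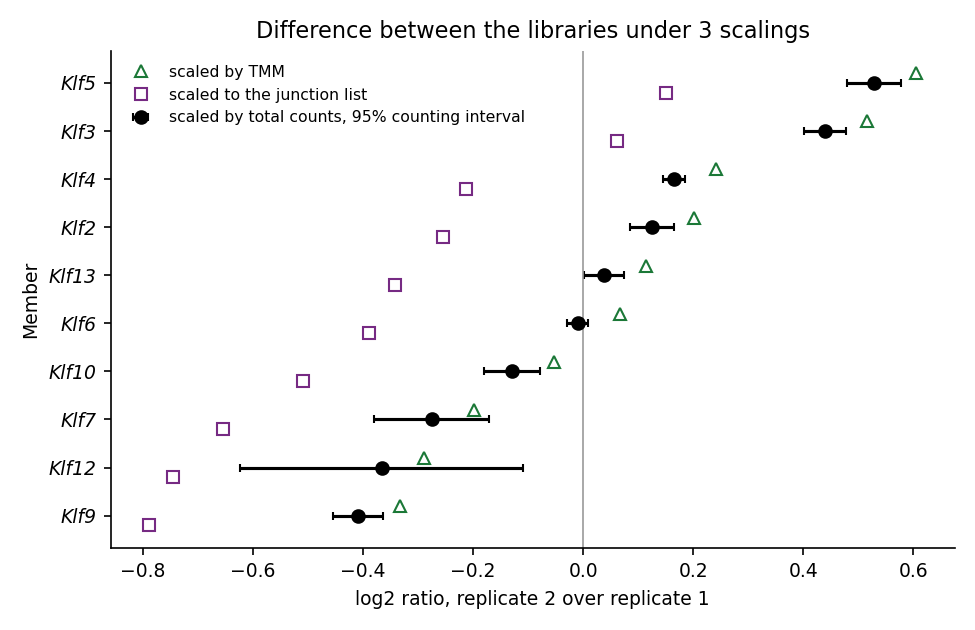
Log2 ratio of replicate 2 over replicate 1 for each member. Black circles with bars give the ratio scaled by total counts with its 95% counting interval, green triangles the TMM scaling and purple squares the scaling to the junction list, under which Klf5 and Klf3 alone lie above 0.

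**Figure D4:**
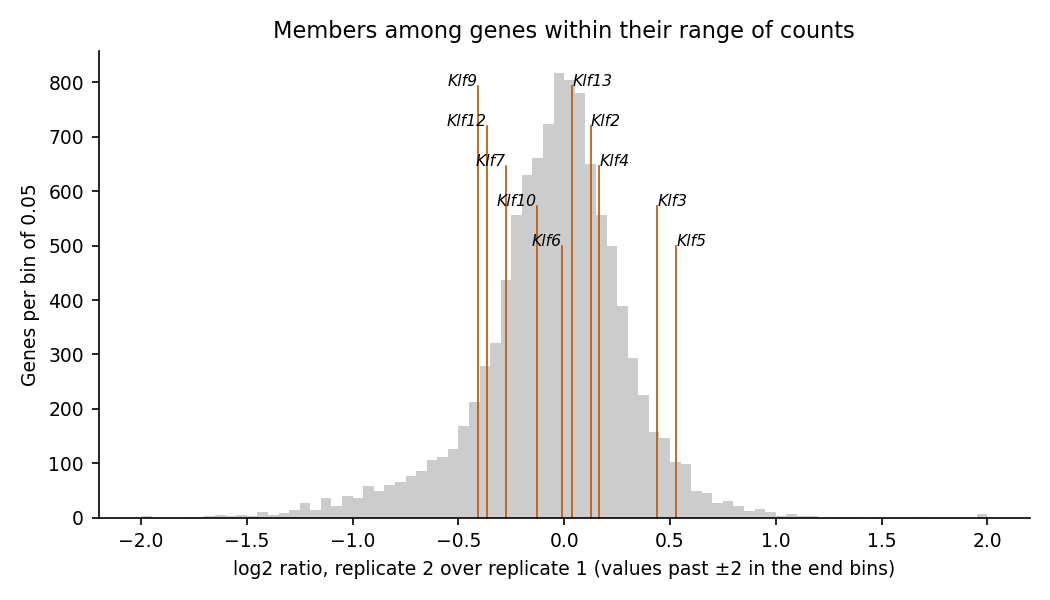
Histogram of the log2 ratio of replicate 2 over replicate 1 for the 10737 genes with 521 to 89564 counts in total, in bins of 0.05, with a line at the ratio of each member, whose height only separates the names. The members lie between -0.41 for Klf9 and 0.53 for Klf5, within the spread of these genes.

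Ratios between members within a library do not depend on the scaling between libraries, and their change from one library to the other does not depend on gene length. The log2 TPM ratio of Klf4 over Klf5 was 0.56 in replicate 1 and 0.19 in replicate 2, so Klf5 gained 0.36 on Klf4. Klf3 gained more on Klf9, with a log2 ratio of -0.17 in replicate 1 and 0.68 in replicate 2. Klf3 and Klf9 changed places between the libraries, as did Klf9 and Klf13, with a log2 ratio of Klf9 over Klf13 of 0.12 and -0.33. In contrast, Klf2 over Klf4 was 0.16 and 0.12, a change of 0.04.

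Markers of cell types moved between the libraries at the same time. All 10 spinous markers and 10 of 11 basal markers were higher in replicate 2, with summed levels of 3478 and 6784 CPM for spinous and 14186 and 19970 CPM for basal genes, none of them at 0. Krt1, a keratin of cells that have left the basal layer, was the highest spinous gene with the deposited lengths, and its partner Krt10 with those of GENCODE. The 10 granular markers summed to 254 and 328 CPM, with 8 higher and 2 not passing. All 10 fibroblast markers were lower, from 13646 to 6781 CPM in sum, and 7 of 10 endothelial markers were lower, from 95.1 to 65.1 CPM, with none at 0 in either list. The 11 myeloid markers, with 4 higher and 4 lower, summed to 8217 and 8826 CPM. They turned to 6 higher and 3 lower with TMM, and to 1 and 10 with the junction scaling. With the junction scaling the median log2 ratio was 0.29 for spinous and -1.32 for fibroblast markers, but -0.02 for basal and -0.01 for granular ones, so the last 2 lost their direction. With total counts Klf2, Klf3, Klf4 and Klf5 moved in the direction of the keratinocyte lists. Klf7, Klf9, Klf10 and Klf12 moved in that of the fibroblast and endothelial lists, but lower values were not particular to these lists. Of the genes tested, 5 of 5 mural (vessel wall), 6 of 7 melanocyte and 4 of 6 erythroid markers were also lower and none higher, beside 27.2% of all genes lower. The part of cell composition in these differences was not tested. Early response genes, measured because the cells had been through enzymes and sorting, were higher in replicate 2 for 11 of 13 genes and lower for none, with a median log2 ratio of 0.28 that became -0.10 with the junction scaling. With the deposited lengths their highest levels were 4226 ± 4.34 TPM for Fos, 3969 ± 359 TPM for Egr1 and 2975 ± 436 TPM for Zfp36, and Egr2 was lowest at 52.2 ± 10.3 TPM. With GENCODE lengths Junb at 2582 TPM, Atf3 at 2357 TPM and Fosb at 2327 TPM lay above Zfp36 at 1882 TPM. Egr3 was then lowest at 129 TPM. With total counts the early-response members of the Klf set did not all share that direction, with log2 ratios of 0.17 for Klf4, 0.12 for Klf2, -0.01 for Klf6 and -0.13 for Klf10. With TMM 13 of 13 early genes were higher, as were Klf4, Klf2 and Klf6 (0.07), while Klf10 at -0.05 did not pass. With the junction scaling these members were lower, as were 10 of 13 early genes. Undisturbed skin was not measured, and the effect of the isolation on Klf levels was not tested.

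The other 7 Klf genes reached lower levels than most of the 10. Klf16 and Klf11, which like Klf9 and Klf13 bind Sin3, stood at 66.5 ± 20.3 and 60.2 ± 0.787 TPM. Klf15, known from metabolic control in muscle and liver, stood at 3.84 TPM in replicate 1 and 2.15 TPM in replicate 2, and Klf8, a CtBP-binding relative of Klf3, at 2.84 and 2.62 TPM. These 4 lay above Klf12 in both libraries. Klf1, the erythroid factor of the family, had 12 and 14 counts, and Klf14 had 17 and 5. Klf17 had 0 counts in both, so that 3 counts set a limit of 0.0818 and 0.0896 CPM. Of the 6 tested, Klf16 was higher in replicate 2 at a log2 ratio of 0.63, and Klf15 at -0.84 and Klf14 at -1.63 were lower by the exact binomial test. Klf16 and Klf15 kept these directions under all 4 scalings, while Klf14 did not pass with TMM. With edgeR's exact test none of the 6 passed.

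Among the 9 Sp genes, 4 passed 1 CPM in both libraries. Sp3 and Sp1, ubiquitous factors of GC-box promoters, stood at 85.2 ± 11.4 and 84.2 ± 0.752 TPM, below the 8 highest Klf members. Sp2 stood at 20.7 ± 2.56 TPM and Sp4 at 4.65 ± 0.433 TPM. Sp5, Sp7, Sp8 and Sp9 had 20 counts or fewer over both libraries, and Sp6, known from tooth and hair development, had 0 counts in both. Of the 6 Sp genes tested, Sp2 was higher and Sp3 lower in replicate 2, and the other 4 did not pass the exact binomial test. Sp3 was lower under all 4 scalings, whereas Sp2 turned to -0.13 with the junction scaling and did not pass.

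**Figure D5:**
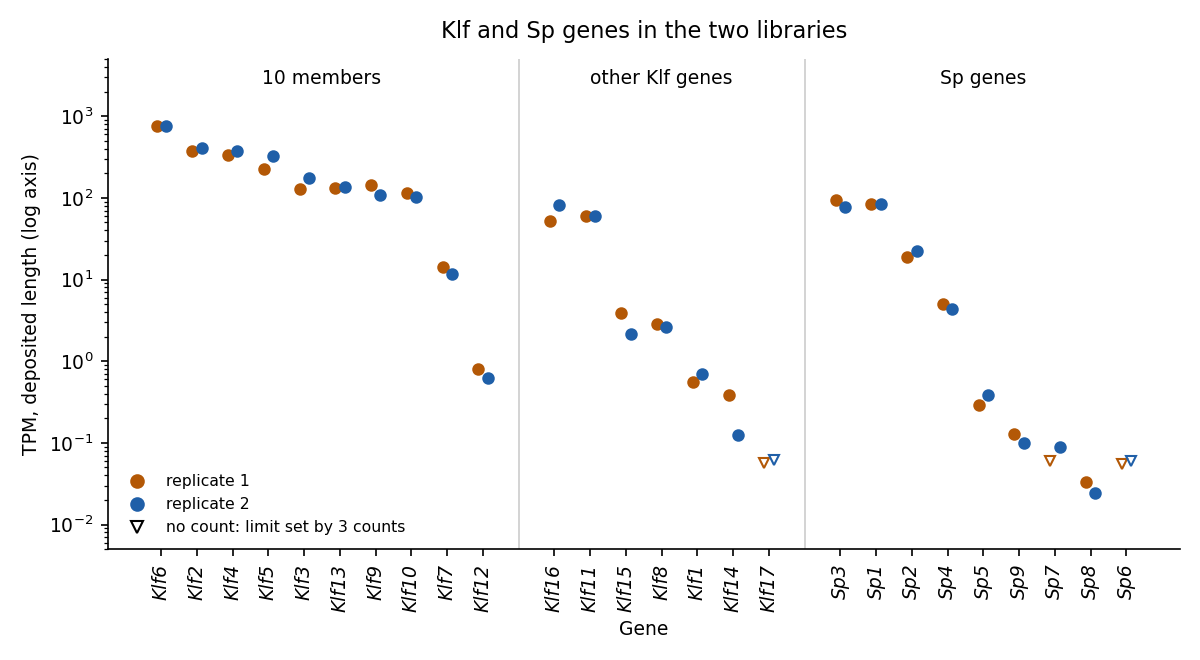
TPM with the deposited gene length on a log axis for the 10 members, the other 7 Klf genes and the 9 Sp genes, with orange for replicate 1, blue for replicate 2 and open triangles for the limit of 3 counts where a library had none. Klf16, Klf11, Sp3 and Sp1 lie between Klf10 and Klf7, and 5 Sp genes lie below Klf12.

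Genes that act with the family were detected throughout, and their levels here use the deposited lengths. All 12 corepressor and coactivator genes passed 10 CPM in both libraries, with the CtBP gene Ctbp1 highest at 134 ± 4.49 TPM, followed by the acetyltransferases Crebbp at 98.8 ± 1.91 TPM and Ep300 at 73.4 ± 2.25 TPM. Ctbp2 was lowest at 9.34 ± 1.06 TPM, but stood at 53.0 TPM with GENCODE lengths, with which Kat2b was lowest at 29.4 TPM. By the exact binomial test 2 of the 12 were higher and 5 lower in replicate 2, with a median log2 ratio of -0.01, beside -0.08 over all tested genes, of which 44.1% passed. Among 7 ubiquitin ligase genes that act on Klf proteins, Wwp1, which targets Klf2 and Klf5, was highest at 129 ± 4.54 TPM. It was followed by Itch at 40.8 ± 2.58 TPM and Smurf2 at 36.5 ± 4.27 TPM, and Btrc was lowest at 4.72 ± 0.361 TPM. With GENCODE lengths Siah1a came after Wwp1 at 68.3 TPM, and Vhl was lowest at 7.41 TPM. Of these 7, 2 were higher and 3 lower, with a median log2 ratio of -0.13. The 16 upstream genes included receptors, Smads, kinases and Mef2 factors. The TGF-beta receptor Tgfbr2 was highest at 241 ± 11.4 TPM, followed by the glucocorticoid receptor Nr3c1 at 83.1 ± 4.41 TPM and Mef2d at 73.8 ± 1.55 TPM, while Mef2c was lowest at 3.95 ± 0.0627 TPM. With GENCODE lengths Thra at 135 TPM and Srf at 124 TPM came after Tgfbr2 at 143 TPM, Mef2c stood at 35.5 TPM and Elk1 was lowest at 14.7 TPM. Of the 16, 4 were higher and 8 lower, with a median log2 ratio of -0.07. These counts followed the scaling: with TMM 6 of the 12 cofactor genes were higher and 3 lower, and with the junction scaling 0 and 12. The ligase genes turned to 2 and 2 with TMM and 0 and 7 with the junction scaling, and the upstream genes to 5 and 3 and to 1 and 14. None of these 35 genes passed edgeR's exact test.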

How the data were processed

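RNA was sequenced from 2 libraries of live GFP-positive cells after ribosomal RNA depletion, with paired-end reads, per the labels' protocols. The deposited files give a raw count per gene and a gene length, which per the submitters' processing notes the authors made with featureCounts and build mm39. The aligner, annotation release, strand setting and treatment of multi-mapping reads were not given in the sources used. Hence reads of overlapping antisense genes may not be told apart. The tables hold 50559 genes, and no row lacks a name. CPM used the total of all counts, and TPM the deposited length. Values with GENCODE lengths kept each library's TPM scaling from the deposited lengths. Differences between the libraries were tested by exact binomial tests (two-sided) for genes whose counts summed to at least 10, adjusted by Benjamini-Hochberg at 0.05. edgeR 4.0.16 gave TMM factors and, as an alternative that includes the spread between libraries, its exact test, for which an intercept-only fit gave the dispersion. DESeq2 1.42.0 gave size factors. Intervals are exact at 95% and, like the floor of 3 counts, cover counting error only. The tests were tried on simulated data. The members and gene lists were chosen with earlier results of these data known. Named were all members, all Klf and Sp genes, the 3 highest and the lowest gene of each further list by TPM, and for cell types the 2 highest and the lowest, of which some are not printed. Other named genes were chosen after their values were seen. These are Gm26649, Gm13748, Xist, Uty, and those that lead, trail or change rank in a list with GENCODE lengths. Finger sequences came from GENCODE M21 transcripts and promoters from RefSeq on GRCm38.p6, used for names and sequence only, since the counts were made on another build. Finger identity had been planned on proteins and was computed on coding bases instead. Software also included Python 3.11.15, scipy 1.17.1 and R 4.3.3.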

Additional observations from a re-analysis of the deposited data

How the results depend on the processing

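The summed level of the members was 2312 TPM and lay between 2224 and 2400 TPM without replicate 2 or replicate 1. It was 2742 TPM with GENCODE lengths, at the library scaling of the deposited lengths. With CPM in place of TPM 4 of 10 members kept their rank, and with GENCODE lengths 2 of 10. The cause is in the construction, since only the length differs. Members called higher and lower in replicate 2 were 4 and 4 with total counts, 6 and 2 with both TMM and the size factors of DESeq2, 2 and 8 with the junction list, and 0 and 0 with edgeR's exact test at either dispersion. Over all genes the counts were 3993 and 6443 with total counts, 5374 and 5069 with TMM, 5494 and 4977 by DESeq2 scaling, and 810 and 14339 with the junction list. edgeR's exact test gave 21 and 45 genes with the common dispersion, and 0 and 0 with gene-wise dispersions, with which no gene passed, Xist included. The sign turned for Klf6, from -0.01 to 0.07 with TMM, DESeq2 size factors and edgeR at both dispersions (0.066, 0.073, 0.066 and 0.066), and with the junction list for Klf2 (-0.25), Klf4 (-0.21) and Klf13 (-0.34). Leaving out the filter on low counts changed no call of a member. A pseudocount of 0.5 CPM turned no direction, and no test was made with it. Finger identity over whole proteins was not run. A ratio cannot be formed without 1 of the 2 libraries. No paired analysis was possible because the series holds 1 group.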
